A study of Mus musculus with 7 samples.

Results

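The Kruppel-like factors described here are 9 transcription factor genes, Klf2, Klf3, Klf4, Klf6, Klf7, Klf9, Klf10, Klf11 and Klf13, taken by their Ensembl gene IDs from tables that listed 24084 genes in at least 1 library. All 9 had reads in each of the 7 libraries and all 9 passed the filter on low counts. None of them passed the main test at an adjusted p of 0.05. Klf9 and Klf4 had the largest differences, and for both the highest Dicer1-deleted library was below the lowest control.

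Kruppel-like factors bind GC-rich and CACCC-type sequences through zinc fingers at the end of the protein, and differ in the part that recruits other proteins. KLF2, KLF4, KLF6 and KLF7 are mostly described as activators that recruit acetyltransferases, KLF3 as a repressor that binds CtBP, and KLF9, KLF10, KLF11 and KLF13 as factors that bind the SIN3 corepressor. In myeloid cells, KLF4 is known for its role in monocyte development and in the response to interleukin 4, KLF2 for restraining inflammatory activation, and KLF6 for a part in inflammatory gene expression.

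The RNA came from tumor-associated macrophages, F4/80+ cells sorted by flow cytometry out of Lewis lung carcinomas grown under the skin of mice, and the comparison asks how these cells differ without Dicer1. The 3 Dicer1-deleted libraries came from LysM-Cre;Dicer-/- mice, made with homozygous Dicer lox/lox alleles, in which Cre recombinase is driven from the lysozyme M locus and so deletes in myeloid cells. The 4 control libraries came from LysM-Cre;Dicer+/+ mice, so all mice carried homozygous LysM-Cre and the tumor. The labels give no age, and whether 1 library stands for 1 animal is not stated. The p-values therefore speak only of the spread among these libraries.

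The libraries held between 43.0 and 51.2 M uniquely placed reads, and 16226 genes were tested. The macrophage genes of the label were present in every library, with a summed level of 10614 to 16887 counts-per-million (CPM) over 10 defining markers in Dicer1-deleted libraries and 8786 to 16909 CPM in control libraries. Dicer1 stood at 7.85, 6.86 and 7.86 CPM in the Dicer1-deleted libraries, against 15.7, 15.8, 18.6 and 17.1 CPM in the control libraries. Each Dicer1-deleted library lay below each control library, although the deletion takes out only a part of the gene and reads from the rest still count. The log2 fold change of Dicer1 was -1.16 ± 0.23 (SE), with an adjusted p of 0.150 in edgeR and 1.33e-04 in DESeq2. Dicer1 itself thus did not pass the main test, and a gene that fails it is not shown to be unchanged. In bulk RNA, fewer cells with a transcript and less of it per cell cannot be told apart. The libraries also differed in how they covered long and short transcripts. The median log2 ratio to the mean library of transcripts longer than 5000 bases, less that of transcripts shorter than 2000 bases, was 0.32, -0.65 and 0.42 in Dicer1-deleted replicates 1 to 3 and -0.33, -0.51, 0.35 and 0.40 in control replicates 1 to 4. Dicer1-deleted replicate 2 also had the lowest median correlation with the other libraries, at 0.908.

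DICER1 is the ribonuclease that releases mature microRNAs from their precursors, and microRNAs act mainly through pairing of their seed, bases 2 to 8, with sites in 3′ untranslated regions (UTRs). Of 24 listed microRNAs of myeloid cells, the mature sequences of 22 were found in RefSeq, and their seed matches were searched in the longest 3′ UTR of each gene in GENCODE M21 (GRCm38). The microRNAs themselves were not measured here. A seed match of miR-92a occurred in 3 members and in 7.24% of the 12131 UTRs of tested genes. It is shown with its sites, because it is the seed shared by Klf2, Klf4 and Klf6. Capitals mark the seed or its match, and an A after the match makes an 8mer site.
miR-92a-3p: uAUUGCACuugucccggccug
Klf2 site, chr8:72321119-72321140, plus strand, 8mer: atgttttcaaaatgGTGCAATa
Klf4 site, chr4:55527367-55527388, minus strand, 8mer: ctgtggtttcagatGTGCAATa
Klf6 site, chr13:5868258-5868279, plus strand, 7mer: tgcaaaatgatcttGTGCAATg

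Klf9 and Klf4, the members with the largest differences between the groups, each held seed matches of 4 of the 22 microRNAs, where the median over all UTRs of tested genes was 2. In Klf9 these were let-7a, miR-17, miR-30a and miR-146a, and in Klf4 miR-29a, miR-34a, miR-92a and miR-146a. The 8mer sites of this set and the let-7a site are shown, since let-7a and miR-30a are abundant in many tissues. Seed matches of let-7a occurred in 10.4%, of miR-30a in 16.03% and of miR-34a in 16.9% of UTRs of tested genes. The median of 2 is over UTRs of all lengths. Of these, 86.75% were no longer than that of Klf9 and 44.8% no longer than that of Klf4. Among the members only Klf2 matched fewer than 4 microRNAs.
let-7a-5p: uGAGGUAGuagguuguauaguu
Klf9 site, chr19:23166916-23166937, plus strand, 7mer: ataaagaacactttCTACCTCt
miR-30a-5p: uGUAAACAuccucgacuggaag
Klf9 site, chr19:23166538-23166559, plus strand, 8mer: tgatcatggggaaaTGTTTACa
miR-34a-5p: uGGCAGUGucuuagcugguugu
Klf4 site, chr4:55528093-55528114, minus strand, 8mer: gtggatgtgacccaCACTGCCa

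Longer UTRs mostly held matches of more microRNAs among the members. Klf2, with a 3′ UTR of 737 bases, matched 1 microRNA and Klf4, with 982 bases, matched 4. Klf10 (1492 bases) matched 4, Klf11 (2326 bases) 5, Klf6 (3111 bases) 6, Klf9 (3222 bases) 4, Klf3 (3743 bases) 9, Klf13 (5157 bases) 8 and Klf7 (6266 bases) 8. The seeds of miR-155 and miR-223, which are abundant in myeloid cells, had no match in these 9 UTRs. They matched only 9.2% and 9.23% of all UTRs of tested genes. A match is a run of letters, and binding at these sites was not measured.

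Promoter windows from 250 bases before to 50 bases after the start, from RefSeq on GRCm38.p6, were found for 8 of the 9 members. The windows of Klf4 and Klf9 are shown because these genes were both lower in the Dicer1-deleted libraries, with no overlap between groups. Capitals mark CACGTG (E-box), TGACG (core of the cyclic AMP response element, also read as CGTCA) and CCAAT (also read as ATTGG). Each motif was searched on both strands, and in the Klf9 window a CCAAT and an ATTGG overlap.
Klf4 promoter, chr4:55532426-55532725, minus strand: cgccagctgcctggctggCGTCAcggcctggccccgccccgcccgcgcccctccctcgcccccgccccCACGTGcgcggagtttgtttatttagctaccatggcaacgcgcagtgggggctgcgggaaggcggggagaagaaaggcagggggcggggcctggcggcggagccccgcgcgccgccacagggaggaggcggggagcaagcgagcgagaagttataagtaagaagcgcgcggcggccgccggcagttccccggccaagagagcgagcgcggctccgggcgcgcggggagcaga
Klf9 promoter, chr19:23140976-23141275, plus strand: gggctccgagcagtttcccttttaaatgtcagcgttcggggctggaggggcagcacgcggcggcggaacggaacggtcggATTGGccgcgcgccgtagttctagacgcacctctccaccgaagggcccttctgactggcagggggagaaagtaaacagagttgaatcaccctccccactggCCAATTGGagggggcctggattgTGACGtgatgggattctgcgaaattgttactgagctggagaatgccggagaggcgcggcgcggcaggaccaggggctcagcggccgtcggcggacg

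TGACG was found in 5 of the 8 windows, those of Klf2, Klf3, Klf4, Klf9 and Klf13, and in 20.8% of all 32851 RefSeq promoter windows. CACGTG was found in Klf4, Klf6 and Klf11, against 7.15% of all windows, and CCAAT in Klf6, Klf9, Klf11 and Klf13, against 37.4%. The GC box GGGCGG, a sequence bound by SP and KLF factors, was in 7 of the 8 windows and in 35.7% of all. The window without it was that of Klf9, which had 63.3% G and C. All 8 windows lay above the median of 52.7% over all windows, from 58.3% in Klf7 to 77.7% in Klf11. The shares over all windows are not matched for G and C. TATAAA was in none of the 8 windows, and the palindromic glucocorticoid response element, AGAACA and TGTTCT with 3 bases between them, in none of the 8 and in 3 of all 32851.

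CTA and TAG with any 4 bases between them were found in the Klf2 window alone among the 8, and in 3.69% of all windows. MEF2 factors bind such a sequence where the 4 bases are A or T, as they are in the Klf2 match. The share of all windows is that of the looser pattern, and the stricter one was not counted. MEF2 factors downstream of the kinases MEK5 and ERK5 are the known activators of Klf2 in endothelial cells, and the match began at position -118 relative to the RefSeq start. The stretch of 60 bases around it is shown with the match in capitals.
Klf2 promoter stretch, chr8:72318919-72318978, plus strand: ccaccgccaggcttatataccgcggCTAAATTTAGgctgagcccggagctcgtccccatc

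Per transcript length, Klf6 was the most abundant member in every library. By the authors' RPKM values (reads per kilobase and per M reads), Klf6 averaged 138 ± 48.3 RPKM in Dicer1-deleted against 231 ± 83.5 RPKM in control libraries (SD, n = 3 and 4). It made up 45.1% of the summed RPKM of the 9 members in Dicer1-deleted and 53.2% in control libraries. Klf4 followed in the controls with 52.8 ± 11.7 RPKM, then Klf10 with 49.4 ± 25.7 RPKM and Klf13 with 43.0 ± 18.5 RPKM. In the Dicer1-deleted libraries Klf4 had 24.2 ± 3.90 RPKM and stood behind Klf10 with 49.3 ± 33.6 RPKM and Klf13 with 47.6 ± 24.3 RPKM.

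The lower members kept the same order in both groups. Klf2 had 21.5 ± 9.13 RPKM in Dicer1-deleted against 24.3 ± 8.35 RPKM in control libraries, and Klf7 13.3 ± 0.723 RPKM in Dicer1-deleted against 13.9 ± 2.27 RPKM in control libraries. Klf3 followed with 8.22 ± 0.771 RPKM in Dicer1-deleted against 10.01 ± 1.18 RPKM in control libraries. Klf9 and Klf11 closed the order, Klf9 with 1.24 ± 0.621 RPKM in Dicer1-deleted against 4.20 ± 0.879 RPKM in control libraries, and Klf11 with 1.19 ± 0.344 RPKM in Dicer1-deleted against 1.66 ± 0.678 RPKM in control libraries. Among neighbours in the control order, the ranges of Klf4 and Klf10, Klf10 and Klf13, Klf13 and Klf2, and Klf2 and Klf7 overlapped, so these steps were within the spread between libraries. Klf6 over Klf4, Klf7 over Klf3, Klf3 over Klf9 and Klf9 over Klf11 were steps without overlap in the controls. In the Dicer1-deleted libraries Klf9 was above Klf11 in 1 of 3.

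**Figure D1:**
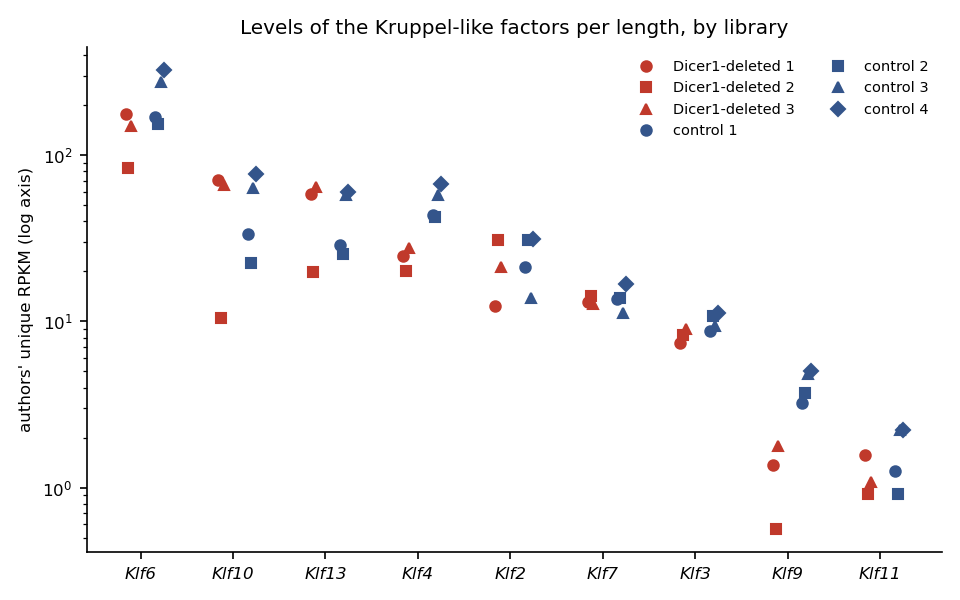
Levels of the 9 Kruppel-like factors in the authors' RPKM (log axis), 1 point per library, Dicer1-deleted libraries in red to the left of control libraries in blue. Klf6 is highest in all 7 libraries, and Klf9 and Klf11 are lowest.

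Of the 9 members, 0 passed edgeR's quasi-likelihood test at an adjusted p of 0.05 over all genes, where 0.0247% of genes passed, 4 in number. At an unadjusted p under 0.05, 2 members were found, Klf9 and Klf4, both lower in Dicer1-deleted libraries, and 8.01% of genes met this in either direction. In DESeq2 the same 2 members fell at an adjusted p under 0.05, and 1.41% of genes fell and 2.19% passed in either direction. The groups did not overlap, with Dicer1-deleted lower, for Klf9 and Klf4, and for 5.44% of all tested genes. The median log2 fold change of the 9 members was -0.22, that of all tested genes 0.03.

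**Figure D2:**
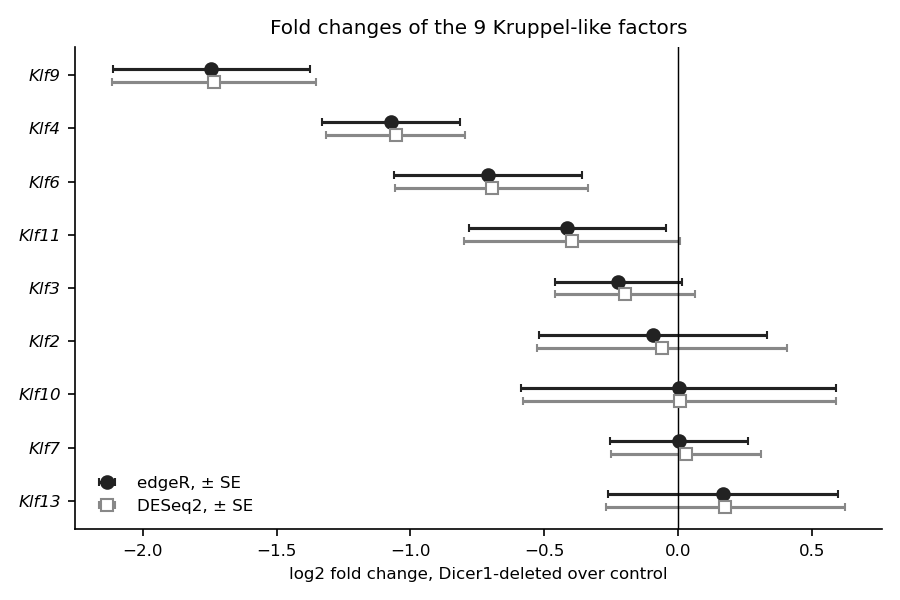
Log2 fold change of each member, Dicer1-deleted over control, from edgeR (filled) and DESeq2 (open), with bars of 1 SE. Klf9 at -1.74 and Klf4 at -1.07 in edgeR lie farthest from 0, and the bars of Klf3, Klf2, Klf10, Klf7 and Klf13 cross it in both fits.

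Klf4, a zinc finger factor of monocytes and of macrophages exposed to interleukin 4, was lower in Dicer1-deleted macrophages, at 0.475 of its control mean. Its level was 75.9, 73.2 and 82.8 CPM in the Dicer1-deleted libraries, against 136, 140, 169 and 206 CPM in the control libraries. All 3 Dicer1-deleted values lay below the lowest control value, and they were close together. The mean was 77.3 ± 4.97 CPM in Dicer1-deleted against 163 ± 32.6 CPM in control libraries (SD, n = 3 and 4). The log2 fold change was -1.07 ± 0.26 (SE), with an adjusted p of 0.214 in edgeR and 0.00493 in DESeq2. Without Dicer1-deleted replicate 1 the DESeq2 call was lost (adjusted p = 0.0916, log2 fold change between -1.13 and -0.91 over all single libraries left out).

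Klf2, which is related to Klf4 and is known for quiescence of endothelium, T cells and monocytes, varied within both groups. Its level was 23.0, 67.8 and 38.2 CPM in the Dicer1-deleted libraries, against 39.9, 61.3, 24.6 and 57.9 CPM in the control libraries. The highest and the lowest of the 7 values were both in the Dicer1-deleted group, so the groups overlapped fully. Its log2 fold change of -0.09 ± 0.43 (SE) had an adjusted p of 0.996 in edgeR.

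Klf6, an early response factor of many cell types, was the most abundant member. It had 750, 424 and 620 CPM in the Dicer1-deleted libraries, against 725, 694, 1114 and 1383 CPM in the control libraries. The means were 598 ± 165 CPM in Dicer1-deleted against 979 ± 330 CPM in control libraries (SD, n = 3 and 4). Dicer1-deleted replicate 1 lay above control replicates 1 and 2, so the groups overlapped. The log2 fold change was -0.71 ± 0.35 (SE), with an adjusted p of 0.703 in edgeR and 0.520 in DESeq2.

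Klf7, a close relative of Klf6 that is known from neurons and fat cells, overlapped between the groups over nearly its whole range. It had 107, 137 and 101 CPM in the Dicer1-deleted libraries, against 113, 121, 87.5 and 137 CPM in the control libraries. Its log2 fold change was 0.00 ± 0.26 (SE), with an adjusted p of 0.9996 in edgeR. Between 4.78% and 7.82% of the expected count of Klf7 came from reads placed at several genes, where no other member exceeded 0.197%.

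Klf3, the CtBP-binding repressor, also overlapped between the groups, and varied little. It had 19.4, 25.8 and 22.9 CPM in the Dicer1-deleted libraries, against 23.1, 30.0, 23.3 and 29.5 CPM in the control libraries. Its log2 fold change of -0.22 ± 0.24 (SE) had an adjusted p of 0.996 in edgeR. Its highest library exceeded its lowest 1.55-fold, the smallest such ratio of the 9 members, and Klf7 followed with 1.57-fold.

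Klf9, a SIN3-binding factor that glucocorticoids and thyroid hormone induce, had the largest fold change. Its level was 4.48, 2.19 and 5.68 CPM in the Dicer1-deleted libraries, against 10.6, 13.0, 15.1 and 16.5 CPM in the control libraries. The highest Dicer1-deleted value was well below the lowest control value. The mean was 4.12 ± 1.78 CPM in Dicer1-deleted against 13.8 ± 2.55 CPM in control libraries (SD, n = 3 and 4), a ratio of 0.299. The log2 fold change was -1.74 ± 0.37 (SE), with an adjusted p of 0.156 in edgeR and 0.000933 in DESeq2. With each single library left out Klf9 still fell in DESeq2, where its largest adjusted p was 0.0144. It is a low gene, with 216, 86 and 266 reads in the Dicer1-deleted libraries, against 508, 578, 828 and 724 reads in the control libraries, and both mates of a pair count as reads.

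Klf13, the nearest relative of Klf9 and known from T cells as a regulator of the chemokine Ccl5, did not pass and overlapped between the groups. It had 383, 155 and 417 CPM in the Dicer1-deleted libraries, against 193, 179, 364 and 400 CPM in the control libraries. Its edgeR log2 fold change was 0.17 ± 0.43 (SE), with an adjusted p of 0.996. In each group the values split into a low and a high set, and the low set held Dicer1-deleted replicate 2 and control replicates 1 and 2.

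Klf10, an early gene of the TGF-beta response, split in the same way. It had 270, 48.1 and 248 CPM in the Dicer1-deleted libraries, against 131, 91.5, 234 and 298 CPM in the control libraries. The 3 libraries with low Klf10 were those with low Klf13, and they were also the 3 in which short transcripts were relatively high. The log2 fold change was 0.00 ± 0.59 (SE), the widest error of the 9 members, with an adjusted p of 0.9998 in edgeR. Within the 4 libraries with relatively high long transcripts, Klf10 was 270 and 248 CPM in Dicer1-deleted against 234 and 298 CPM in control libraries.

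Klf11, a relative of Klf10 that is also induced by TGF-beta, was among the lowest members. It had 6.68, 4.62 and 4.44 CPM in the Dicer1-deleted libraries, against 5.37, 4.13, 9.01 and 9.48 CPM in the control libraries. Control replicates 3 and 4 stood above the other 5 libraries, and control replicate 2 was lowest. Its edgeR log2 fold change was -0.41 ± 0.37 (SE), with an adjusted p of 0.969.

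**Figure D3:**
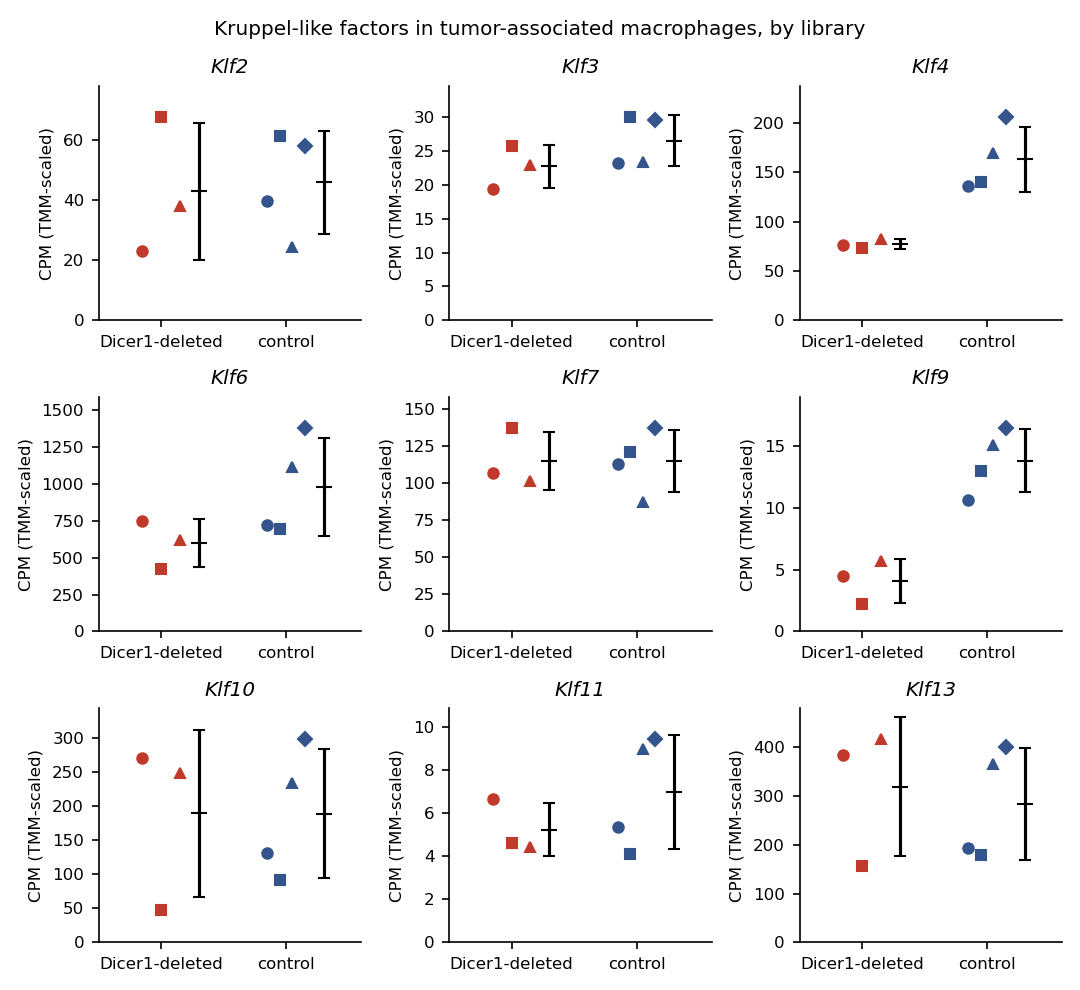
Level of each member in TMM-scaled CPM, 1 panel per gene, with Dicer1-deleted libraries on the left and control libraries on the right (circle, square, triangle and diamond for replicates 1 to 4), and mean ± SD beside them. Klf4 and Klf9 do not overlap between groups, while Klf10 and Klf13 spread widely within each.

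Klf4 and Klf9 kept their order between the groups at both ends of the transcript length trend. Their groups did not overlap, so no split of the libraries could have come out otherwise, and only the values are described. Among the 3 libraries with relatively high short transcripts, Klf4 was 73.2 CPM in the Dicer1-deleted library and 136 and 140 CPM in the controls. In the other 4, Klf4 was 75.9 and 82.8 CPM in Dicer1-deleted against 169 and 206 CPM in control libraries. Klf9 was 2.19 CPM in the Dicer1-deleted library of the first kind and 10.6 and 13.0 CPM in its controls, and 4.48 and 5.68 CPM in Dicer1-deleted against 15.1 and 16.5 CPM in control libraries of the second. With the trend of each library as a covariate, an alternative added with the data in view and built from the same libraries, Klf9 and Klf4 fell in edgeR (adjusted p = 0.0169 and 0.0260), as 0.462% of genes did. In DESeq2 with this covariate Klf6 fell as well, with a log2 fold change of -0.71 (adjusted p = 0.00537), and so did 3.95% of genes. For Klf10 the covariate gave -0.31 in edgeR (adjusted p = 0.475) and -0.28 in DESeq2 (adjusted p = 0.514).

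**Figure D4:**
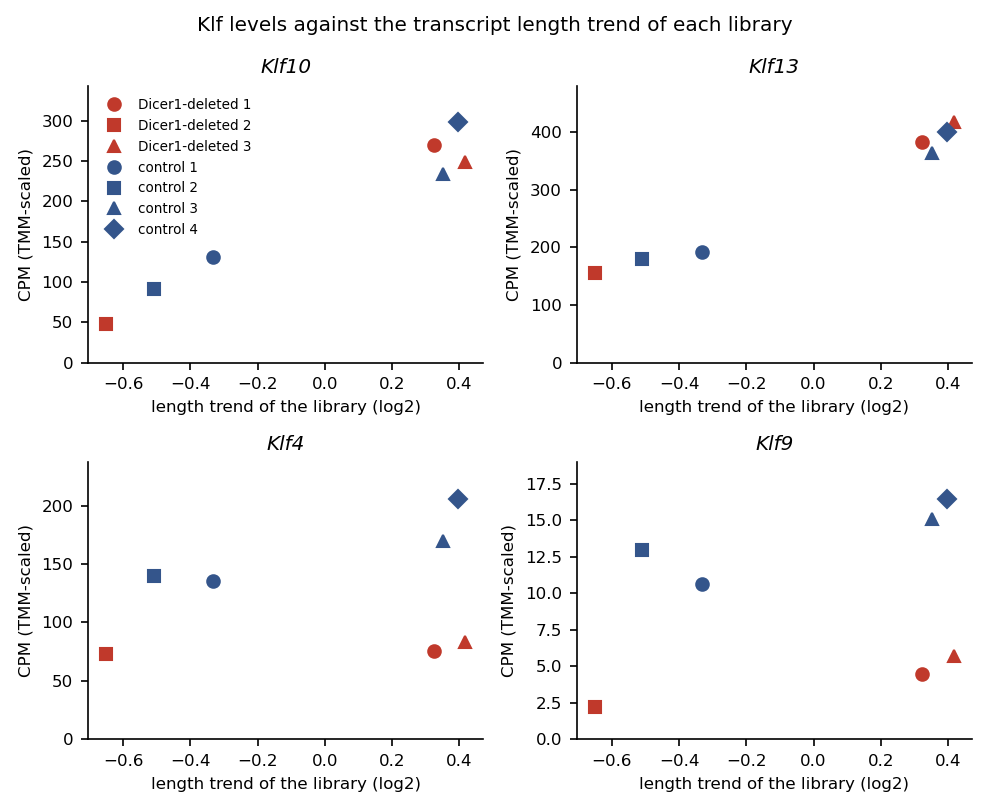
Level of Klf10, Klf13, Klf4 and Klf9 (TMM-scaled CPM) against the transcript length trend of each library (log2, long less short transcripts), Dicer1-deleted in red and control in blue. Klf10 and Klf13 are low in the 3 libraries on the left in either group. All red points of Klf4 and Klf9 lie below all blue points, and so on both sides whatever the trend.

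The titles of the samples carry a code, L4 or L5, whose meaning they do not give. Within code 4, with 2 Dicer1-deleted and 1 control library, the log2 ratio of the mean CPM was -0.84 for Klf4 and -1.72 for Klf9. Within code 5, with 1 Dicer1-deleted and 3 control libraries, it was -1.17 for Klf4 and -1.65 for Klf9. The negative sign of these 2 genes was fixed in advance, because neither overlapped between the groups. Klf6 was at -0.41 in code 4 and -0.52 in code 5, and Klf2 at -0.21 and -0.82. Klf10 was at 0.70 in code 4 and 0.29 in code 5, and Klf13 at 0.68 and 0.27. Klf11 was at 0.13 in code 4 and -0.25 in code 5.

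By the pattern over the 7 libraries, 7446 genes of at least 10 CPM were ranked by Pearson's r of log2 CPM with Klf4 and with Klf2. Most like Klf4 were Emp1, a membrane protein, with r = 0.98, Cryzl2, Dicer1 and the heparan sulfate sulfotransferase Hs2st1, each with 0.96, and Anxa1, a glucocorticoid-induced annexin, with 0.96. Most like Klf2 were Rtf1, a subunit of an elongation complex, with 0.99, the microRNA gene Mir24-2 with 0.98, the lysosomal channel Mcoln1 with 0.97, and Aldoart1 and Aldoa with 0.96 each. Aldoart1 is a close copy of the aldolase gene Aldoa, so the pair may share reads. These values rest on 7 libraries that share the groups and the length trend.

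Other members of the family were mostly low. Of 17 other KLF and SP genes, 11 were listed and 6 were tested, and none passed in edgeR or DESeq2 in either direction. Their median log2 fold change was 0.07. Sp1 and Sp3, general activators that bind GC boxes, had 61.0 ± 11.3 and 40.4 ± 1.68 CPM in Dicer1-deleted libraries, against 63.9 ± 11.9 and 38.1 ± 5.83 CPM in control libraries (SD, n = 3 and 4). Sp2 was at 9.46 ± 1.57 CPM in Dicer1-deleted against 7.65 ± 0.9998 CPM in control libraries, and Sp4 at 7.83 ± 3.09 CPM in Dicer1-deleted against 7.52 ± 4.55 CPM in control libraries. Klf1, Klf5, Klf15, Sp5 and Sp9 stayed below 1 CPM in every library.

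The proteins that act with or on these factors did not pass either. Of 14 cofactors and ubiquitin ligases, all tested, 0 rose and 0 fell in edgeR and in DESeq2, and the median log2 fold change was -0.11. Ctbp2, a corepressor bound by KLF3, had 36.7 ± 5.08 CPM in Dicer1-deleted against 45.9 ± 2.85 CPM in control libraries, with no overlap (log2 fold change -0.32 ± 0.22, SE). Btrc, a ligase subunit known to act on KLF4, had 18.4 ± 6.33 CPM in Dicer1-deleted against 27.1 ± 1.51 CPM in control libraries, also with no overlap (-0.56 ± 0.29). The ligase subunit Fbxw7, known to act on KLF2, and the acetyltransferase Kat2b had log2 fold changes of -0.25 and 0.32.

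Of the kinases and factors that act on Klf2, the MEK5, ERK5 and MEF2 pathway, 7 of 8 listed genes were tested and 0 passed in either direction, with a median log2 fold change of 0.01. Map3k3, the kinase above MEK5, had 37.5 ± 6.76 CPM in Dicer1-deleted against 29.4 ± 1.06 CPM in control libraries. It was higher in each Dicer1-deleted library (0.35 ± 0.23, SE), with an adjusted p of 0.859 in edgeR. The share of all genes without overlap in this direction was not counted. Map2k5, which encodes MEK5, and the MEF2 genes Mef2a and Mef2d had log2 fold changes of -0.16, -0.26 and 0.06. Mef2b was at 0 in all libraries.

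Signals that induce members of the family were followed through their other target genes. Of 32 immediate early genes, all tested, 0 passed in edgeR or DESeq2, 16 had positive and 16 negative fold changes, and the median was 0.03. Fos had 1034 ± 155 CPM in Dicer1-deleted against 1526 ± 177 CPM in control libraries with no overlap (log2 fold change -0.56 ± 0.26, SE), Fosb had -0.58, Ier5 had 0.85 and Ier2 had 0.39. Of 12 glucocorticoid-induced genes 11 were tested, 0 passed in edgeR or DESeq2, and the median was -0.31. That median came near 0, at -0.046 without Dicer1-deleted replicate 2 and -0.019 without control replicate 2. It changed sign in other fits, at 0.19 without control replicate 4, 0.011 in limma-voom and 0.079 with the L code as covariate. Tsc22d3, the glucocorticoid-induced leucine zipper, had 347, 175 and 319 CPM in the Dicer1-deleted libraries, against 564, 443, 508 and 1042 CPM in the control libraries. These values did not overlap, and the log2 fold change was -1.19 ± 0.39 (SE), with an adjusted p of 0.393 in edgeR and 0.105 in DESeq2. Cd163, Mt2 and Per1 had log2 fold changes of -1.54, -0.97 and 0.35 and overlapped between groups.

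Of 16 genes of the TGF-beta pathway, 14 were tested and 0 passed in edgeR, while 1 fell in DESeq2. The median log2 fold change was 0.13. Smad7, the feedback inhibitor of the pathway, Tgfbr1, its type I receptor, and Tgfb1, the ligand, had log2 fold changes of 1.21, 1.11 and 1.08. Each had an unadjusted p under 0.05 in edgeR, as did 8.01% of all tested genes in either direction. At this p, 1 gene of the list was lower. Tgfbr1 and Tgfb1 overlapped between groups. In the Dicer1-deleted libraries Smad7 had 6.85, 16.7 and 7.43 CPM and Tgfb1 3.99, 13.4 and 4.82 CPM. Both were highest in replicate 2.

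Genes linked to KLF4 in macrophages differed in direction. Of 11 tested genes 0 passed in edgeR, while 1 rose and 1 fell in DESeq2, and the median log2 fold change was -0.25. That median was 0.039 without Dicer1-deleted replicate 2, 0.061 without control replicate 3, 0.089 without control replicate 4, 0.14 in limma-voom and 0.15 with the L code as covariate, so it has no stable direction. Retnla, a secreted protein induced by interleukin 4, had 1.79, 2.69 and 2.14 CPM in the Dicer1-deleted libraries, against 17.3, 14.3, 42.3 and 3.78 CPM in the control libraries, and fell in DESeq2 (adjusted p = 2.23e-04). Pparg, a nuclear receptor of the same response, had 16.9, 16.2 and 11.6 CPM in the Dicer1-deleted libraries, against 6.46, 5.34, 4.63 and 9.07 CPM in the control libraries, and rose in DESeq2 (adjusted p = 0.0220). Neither group pair overlapped, and their edgeR adjusted p-values were 0.181 and 0.233. Arg1, the arginase of this response, and Cd14, the coreceptor for bacterial products, had log2 fold changes of -0.85 ± 0.42 and -0.50 ± 0.27 (SE), without passing.

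Of 10 genes linked to KLF2, 0 passed in edgeR or DESeq2, and the median log2 fold change was -0.14, or 0.37 without control replicate 3. Itgb7, an integrin chain, had 31.5, 127 and 25.7 CPM in the Dicer1-deleted libraries, against 24.5, 14.9, 19.3 and 28.99 CPM in the control libraries. Its high value was in Dicer1-deleted replicate 2, the library with the highest Klf2. That library also had the lowest transcript length trend, at -0.65, and the lowest median correlation with the others, at 0.908. S1pr1, the receptor that lets lymphocytes leave tissue, had 9.26, 4.27 and 19.0 CPM in the Dicer1-deleted libraries, against 15.1, 34.3, 32.6 and 24.6 CPM in the control libraries. The lowest S1pr1 value was in Dicer1-deleted replicate 2 as well. Control replicate 2, where Klf2 was also high at 61.3 CPM, went the other way, with the lowest Itgb7 and the highest S1pr1 of all libraries. Hif1a, the oxygen-regulated transcription factor, had a log2 fold change of -0.29.

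The groups overlapped for every macrophage marker but Lyz2. Of the 10 macrophage markers, 0 passed in edgeR and 1 fell in DESeq2, Lyz2 (57.0 ± 8.97 CPM in Dicer1-deleted against 139 ± 50.6 CPM in control libraries, adjusted p = 0.0175), the gene of the lysozyme M locus that carries Cre in all mice. Adgre1, which encodes F4/80, had a log2 fold change of 0.22 ± 0.47 (SE), Fcgr1 0.91 and C1qa 0.29. The 7 monocyte markers summed to 711.1 to 1195 CPM in Dicer1-deleted against 675 to 2169 CPM in control libraries, and 0 passed. Spn, Ccr2, Plac8 and Ly6c2 had log2 fold changes of 0.47, -0.58, 0.80 and 0.87.

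Endothelial cells express Klf2 and Klf4. Of 10 endothelial markers 5 were tested, 0 passed in edgeR and 1 rose in DESeq2. All 5 had positive fold changes, and the median log2 fold change was 1.05, or 0.11 to 2.57 over the alternatives. The sum of the markers was 43.5 to 78.6 CPM in Dicer1-deleted against 8.80 to 24.8 CPM in control libraries. Pecam1, which myeloid cells also express, made up most of it, with 48.6 ± 18.3 CPM in Dicer1-deleted against 8.20 ± 4.07 CPM in control libraries (DESeq2 adjusted p = 3.13e-05). The defining markers Cdh5 and Kdr averaged 0.680 and 2.21 CPM in Dicer1-deleted against 0.323 and 1.74 CPM in control libraries, and Vwf 6.42 and 4.38 CPM.

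Markers of lymphocytes and granulocytes were present at low to moderate levels. The 16 T and NK cell markers, of which 14 were tested, had 1.14 as their median log2 fold change, and 0 rose in edgeR and 1 in DESeq2, the granule protein gene Nkg7 (adjusted p = 0.0429). They summed to 123 to 221 CPM in Dicer1-deleted against 41.5 to 241 CPM in control libraries, mostly from Il7r, while Cd3e averaged 0.459 CPM in Dicer1-deleted against 0.245 CPM in control libraries. The 8 B cell markers summed to 113 to 156 CPM in Dicer1-deleted against 36.3 to 75.7 CPM in control libraries. Most of it was Ighm, with 114 ± 19.6 CPM in Dicer1-deleted against 48.6 ± 14.3 CPM in control libraries. Ighm and Cd79b rose in DESeq2 (adjusted p = 0.0116 and 0.0189). Of the 5 tested, 4 had positive fold changes and 1 a negative one, Igkc at -2.36, while Ms4a1 and Ebf1 had 0.24 and 0.26. The other 3 stayed below 1 CPM in every library. The 10 neutrophil markers summed to 254 to 315 CPM in Dicer1-deleted against 177 to 627 CPM in control libraries, and Mmp8 rose in DESeq2 (adjusted p = 0.00730). Csf3r, Mmp9 and Retnlg had log2 fold changes of 0.89, -1.66 and 0.58 and did not pass.

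Of 9 dendritic cell markers 8 were tested, with a median log2 fold change of -0.58, which was -0.98 in limma-voom, 0.0047 without control replicate 1 and -0.23 without control replicate 3. They summed to 8.18 to 13.1 CPM in Dicer1-deleted against 8.52 to 140 CPM in control libraries. Ccr7 fell in DESeq2 (adjusted p = 0.00917), Xcr1 rose there (adjusted p = 7.85e-04), and Cd209a had 2.64 ± 1.43 CPM in Dicer1-deleted against 38.4 ± 49.6 CPM in control libraries. The 10 fibroblast and mural markers summed to 26.7 to 46.2 CPM in Dicer1-deleted against 21.9 to 44.2 CPM in control libraries, and 0 passed. Acta2, Lum, Dcn and Col3a1 had log2 fold changes of 0.95, -0.62, -0.18 and -0.11. The 8 epithelial and carcinoma markers summed to 5.79 to 9.09 CPM in Dicer1-deleted against 2.11 to 14.1 CPM in control libraries, mostly from Cdh1, whose log2 fold change was -0.17. Krt7 fell in DESeq2 (adjusted p = 0.0471) at a low level, with means of 0.0678 CPM in Dicer1-deleted against 0.927 CPM in control libraries. The part of these cell type markers in the levels of Klf4 and Klf9 was not tested.

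Some members share their place in the genome with other annotated genes, and the kit keeps no strand. Klf7 overlaps the antisense gene Gm13748 over 12129 bases, and that gene had 6, 0 and 10 reads in Dicer1-deleted against 14, 6, 28 and 10 reads in control libraries. Klf9 overlaps the microRNA gene Mir1192, with 0 reads in each Dicer1-deleted library and 4, 0, 2 and 0 reads in the controls. Klf3 and Klf13 also overlap annotated transcripts, which were not analysed here. For Klf4 and Klf6, at chr4:55527143-55532466 on the minus strand and chr13:5861482-5870394 on the plus strand of GRCm38, no overlapping gene is annotated in GENCODE M21, and Klf9 lies at chr19:23141226-23168134 on the plus strand.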

How the data were processed

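The authors deposited, per gene and library, unique read counts, expected counts that add shares of reads placed at several genes, and RPKM values, per the file headers. Reads were aligned with Bowtie2, per the submitters' processing notes, with no version given, and the sources here do not give the genome build, the gene annotation or the counting program. Every deposited count was an even number, so a read pair counts as 2 reads. Per the labels' protocols, cDNA was amplified and no molecular identifiers are named, so reads are not independent molecules and depth (43.0 to 51.2 M unique reads) overstates precision.

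The 31124 values of genes unlisted in a library were set to 0. IDs were matched to GENCODE M21 (21813 of 24084). Unique counts were tested in edgeR 4.0.16 (R 4.3.3) with filterByExpr, TMM factors and the quasi-likelihood F test, adjusted by Benjamini-Hochberg over 16226 genes at a threshold of 0.05, with no covariate. CPM values are TMM-scaled, and the SE of a fold change is its size divided by the square root of F. The common dispersion was 0.203, a coefficient of variation of 45.1%. DESeq2 1.42.0, limma 3.58.1 (voom), other size factors, filters, counts and covariates, and leaving out each library, were alternatives. The transcript length trend used the longest GENCODE transcript of each gene. The fits were tested on simulated data. Python 3.11.15 made the tables.

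All 9 members are named, with Dicer1, the genes most like Klf2 and Klf4, and from each supporting list up to 4 tested genes with the smallest edgeR p and a mean of at least 5 CPM. Of the genes that meet this rule, 2 are not reported here. Outside this rule, Cdh5, Kdr and Cd3e are named as defining markers and Nkg7, Xcr1 and Krt7 as single DESeq2 calls, chosen after their values were seen. The members and lists were chosen with earlier results of these data known.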

Additional observations from a re-analysis of the deposited data

How the results depend on the processing

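Klf4 and Klf9 were lower under all 26 alternatives (edgeR without single libraries gave Klf9 between -2.05 and -1.44). The alternatives reuse the same libraries, and without overlap between the groups, leaving out a library could hardly change this direction. Klf3, Klf6 and Klf11 had negative fold changes in every fit that gave them a value. Klf11 had none with the filter of 10 CPM in 3 libraries, and its ratio of means within L code 4 was above 0. The order of mean levels over all 7 libraries was the same for 9 of 9 members by CPM per kilobase; the orders within each group were not compared this way. The calls depended on the test. In place of 0 members, 2 passed in DESeq2 (Klf4 at -1.05, Klf9 at -1.73), 1 to 2 in DESeq2 with single libraries left out (Klf4 between -1.13 and -0.91, Klf9 between -2.03 and -1.44), 2 in edgeR with the length trend (Klf4 at -1.08, Klf9 at -1.87) and 3 in DESeq2 with the length trend (Klf4 at -1.05, Klf6 at -0.71, Klf9 at -1.85). The length trend and the DESeq2 fits without single libraries were added after seeing the data.

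Over all genes, 4 passed in edgeR, 0 to 3 without single libraries, 397 in DESeq2, 231 to 400 in DESeq2 without single libraries, 80 in limma-voom with quality weights, 42 without a filter, 1 with the 10 CPM filter, 0 with the L code as covariate, and 141 and 1165 with the length trend in edgeR and DESeq2. The cause was not tested.

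Fold changes near 0 changed sign. Klf7 was at -0.10 in limma-voom, -0.060 without TMM factors, -0.053 with the L code and -0.0016 with expected counts. Klf10 was at -0.0059 without TMM factors, -0.0015 without a filter, -0.011 with the 10 CPM filter, and -0.31 and -0.28 with the length trend. Without single libraries, Klf2 ranged from -0.58 to 0.21 in edgeR and -0.58 to 0.25 in DESeq2, Klf7 from -0.15 to 0.10 and -0.14 to 0.13, Klf10 from -0.35 to 0.45 and -0.34 to 0.46, and Klf13 from -0.075 to 0.49 and -0.059 to 0.50. No paired analysis was possible because the labels give no replicate numbers shared between the groups. Depth limits Klf9 and Klf11 most, with 86 to 828 and 182 to 494 reads a library.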
